A study of Mus musculus with 3 samples.

Results

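The 10 transcripts described here are messenger RNAs encoded by the mouse mitochondrial genome: mt-Nd1, mt-Nd2, mt-Co1, mt-Co2, mt-Atp6, mt-Co3, mt-Nd5, mt-Nd4, mt-Cytb and mt-Nd6. They were matched by symbol to the gene identifiers of the count tables, and all 10 were found among 29267 identifiers, 33 of which belong to the mitochondrial genome. Single mouse embryonic stem cells, derived from blastocysts, were profiled on 3 chips, called plates 1, 2 and 3 here. Every plate held the same 3 cell types. Deleted cells were Mll1-/-, inhibited cells had undergone Mll1 inhibition, and control cells were Mll1fl/fl. All of them, controls included, were of the C57BL/6J strain and carried Cre-ER TM beside Mll1fl/fl in their labelled genotype. Mll1 is the older name of Kmt2a, the gene of an enzyme that methylates lysine 4 of histone H3. The labels name neither the inhibitor, its dose, the treatment times, nor the deleted exons, and they do not say whether a cell type was 1 clone or whether the plates were separate cultures. P-values therefore rest on plate-to-plate variation alone, and that may be technical.

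Mitochondrial DNA is a small circular genome whose messenger RNAs all encode core subunits of the respiratory chain or of ATP synthase. Both strands are transcribed as long precursors from which the flanking transfer RNAs are cut out, and most of the released messenger RNAs receive a short poly(A) tail. Several reading frames end on an incomplete stop codon that the tail completes. Copies of mitochondrial DNA have also been inserted into the nuclear chromosomes during evolution, where they are annotated as pseudogenes. Pluripotent stem cells have immature mitochondria and rely strongly on glycolysis, but they do express the mitochondrial genome.

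Of the 13 messenger RNAs of this genome, 12 lie on the plus strand of the reference and belong to the heavy-strand precursor, and mt-Nd6 alone lies on the minus strand. In GENCODE M21 coordinates of GRCm38 (mm10), the members that encode complex I, the NADH dehydrogenase, are mt-Nd1 (chrM:2751-3707), mt-Nd2 (chrM:3914-4951), mt-Nd4 (chrM:10167-11544), mt-Nd5 (chrM:11742-13565) and mt-Nd6 (chrM:13552-14070). Complex III has mt-Cytb (chrM:14145-15288), the cytochrome b gene. Complex IV, cytochrome c oxidase, has mt-Co1 (chrM:5328-6872), mt-Co2 (chrM:7013-7696) and mt-Co3 (chrM:8607-9390). ATP synthase has mt-Atp6 (chrM:7927-8607). The 3 messenger RNAs outside the list are mt-Nd3, mt-Nd4l and mt-Atp8. Neighbours overlap in places: mt-Nd4 shares 7 bases with mt-Nd4l, mt-Atp6 shares 43 with mt-Atp8 and 1 with mt-Co3, and mt-Nd5 and mt-Nd6 share 14 bases on opposite strands. Whether the counting used strand is not stated in the labels or notes. Reads of mt-Nd6 and reads of heavy-strand precursor that runs across it therefore cannot be told apart.

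The sequences that bear most on the measurements are those that a read could not place uniquely. The 3 lines below show 60 bases of mt-Co2 (chrM:7457-7516), the same stretch of its chromosome 1 copy Gm28661 (chr1:24615062-24615121, minus strand) and that of its chromosome 2 copy Gm13341 (chr2:22587471-22587530, minus strand), 5′ to 3′ from GENCODE M21. Capitals mark the 6 bases at which Gm13341 differs from mt-Co2. The window was chosen as the one with the most such differences.
mt-Co2: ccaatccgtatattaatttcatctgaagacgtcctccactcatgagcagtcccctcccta
Gm28661: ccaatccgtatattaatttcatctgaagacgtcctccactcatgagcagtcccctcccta
Gm13341: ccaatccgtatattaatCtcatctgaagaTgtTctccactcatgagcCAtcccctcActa
The Gm28661 line has no capital, since it is identical to mt-Co2 over this window and over all 681 bases aligned.

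Annotated 3′ ends are shown next, because most messenger RNAs of this genome receive their tail at the 3′ end. Whether mt-Nd6 is tailed at the end shown was not tested. Capitals mark the single base left after the last whole codon in the 3 members with an incomplete stop, and the whole stop codon in mt-Nd6. Each line gives the last 24 bases.
mt-Nd4 (chrM:11521-11544): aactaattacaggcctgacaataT
mt-Cytb (chrM:15265-15288): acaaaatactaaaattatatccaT
mt-Co3 (chrM:9367-9390): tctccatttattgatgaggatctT
mt-Nd6 (chrM:13552-13575, minus strand): attatcgagattactcgagatTAA
The 3 incomplete ends belong to 2 of the most abundant members and to 1 of the members that were almost absent from the counts. The longest run of adenines inside a member was 8 bases, in mt-Nd2, and the shortest such maximum was 3 bases, in mt-Nd6. Adenine made up 22.2% of mt-Nd6 and 29.5 to 36.9% of the other members.

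Wells were kept if they had at least 1000 detected genes and under 20% of their UMIs (unique molecular identifiers, which count molecules) from the mitochondrial genome. This left 1310 deleted, 1590 inhibited and 1513 control wells, 4413 of 4610, with a median of 36355 UMIs and 3933 genes. Summed by plate and cell type they gave 9 libraries of 25914860 to 43773924 UMIs, of which the 10 members took 2.52 to 3.11%. A well held a median of 651 to 1774 member UMIs, depending on the library. Wells without cells (n = 15) held a median of 165 UMIs and a median of 2 member UMIs, with a highest value of 22. Pluripotency markers were expressed in every library: the 9 markers summed to 5179 to 6615 CPM (the usual count scaled to a common library total) in deleted, 4615 to 5460 CPM in inhibited and 6241 to 6435 CPM in control cells. Dppa5a made up most of these sums, with a mean of 5081 CPM in deleted, 4246 CPM in inhibited and 5511 CPM in control cells. Nanog had means of 20.1, 12.5 and 22.4 CPM in the same order. Fibroblast or feeder markers summed to 0.864 to 5.55 CPM over all 9 libraries and blood markers to 0.0376 to 0.627 CPM. The 5 trophectoderm markers summed to 42.1 to 74.5 CPM in deleted, 38.3 to 52.2 CPM in inhibited and 36.8 to 43.3 CPM in control cells, and the 5 primitive endoderm markers to 2.68 to 5.83 CPM in deleted, 3.19 to 4.49 CPM in inhibited and 4.47 to 8.07 CPM in control cells. Kmt2a stood at 62.0, 49.9 and 39.2 CPM in deleted cells on plates 1 to 3, at 40.6, 43.4 and 46.6 CPM in inhibited cells and at 50.2, 50.1 and 54.7 CPM in control cells. Whole-gene counts of Kmt2a do not check a deletion whose exons are not named. Plates shared 436 to 503 of their well barcodes in pairs, and each plate was counted on its own.

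Among the members, 7 were abundant in every library and 3 were close to 0. Levels between genes are given as CPM per kilobase of transcript. Whether UMIs scaled with transcript length was not tested. mt-Cytb, whose protein is the cytochrome b of complex III, stood at 7564 ± 1149 CPM per kilobase (SD, n = 9 libraries). mt-Nd1, a membrane subunit of complex I, stood at 7054 ± 1759 CPM per kilobase. Their order was not fixed: mt-Nd1 was above mt-Cytb in all 3 plate 2 libraries and in deleted cells on plate 1, and below it in the other 5. Below them came mt-Nd4, a proton-pumping membrane subunit of complex I, at 3486 ± 439, and mt-Co1, the catalytic subunit of complex IV, at 2412 ± 234 CPM per kilobase. mt-Nd2, another complex I membrane subunit, stood at 1864 ± 245 CPM per kilobase. The lowest of the 7 were mt-Nd6 at 1091 ± 139 and mt-Nd5 at 829 ± 114 CPM per kilobase, both complex I subunits. Ranks 3 to 7 were the same in all 9 libraries, in the order mt-Nd4, mt-Co1, mt-Nd2, mt-Nd6, mt-Nd5. Without division by length the order of the 7 means was the same but for its end. There mt-Nd6 was lowest at 566 ± 72.0 CPM, below mt-Nd5 at 1512 ± 207 CPM. Per kilobase, the lowest 2 of the 7 were thus the light-strand mt-Nd6 and mt-Nd5, its neighbour on the other strand. A UMI of mt-Nd1 and of mt-Nd4 was found in 100% of the 4413 wells. The lowest share among the 7 was 94.8% of wells, for mt-Nd6. Of the 15 wells without cells, 2 had a UMI of mt-Nd6 and 7 had one of mt-Nd4.

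**Figure D1:**
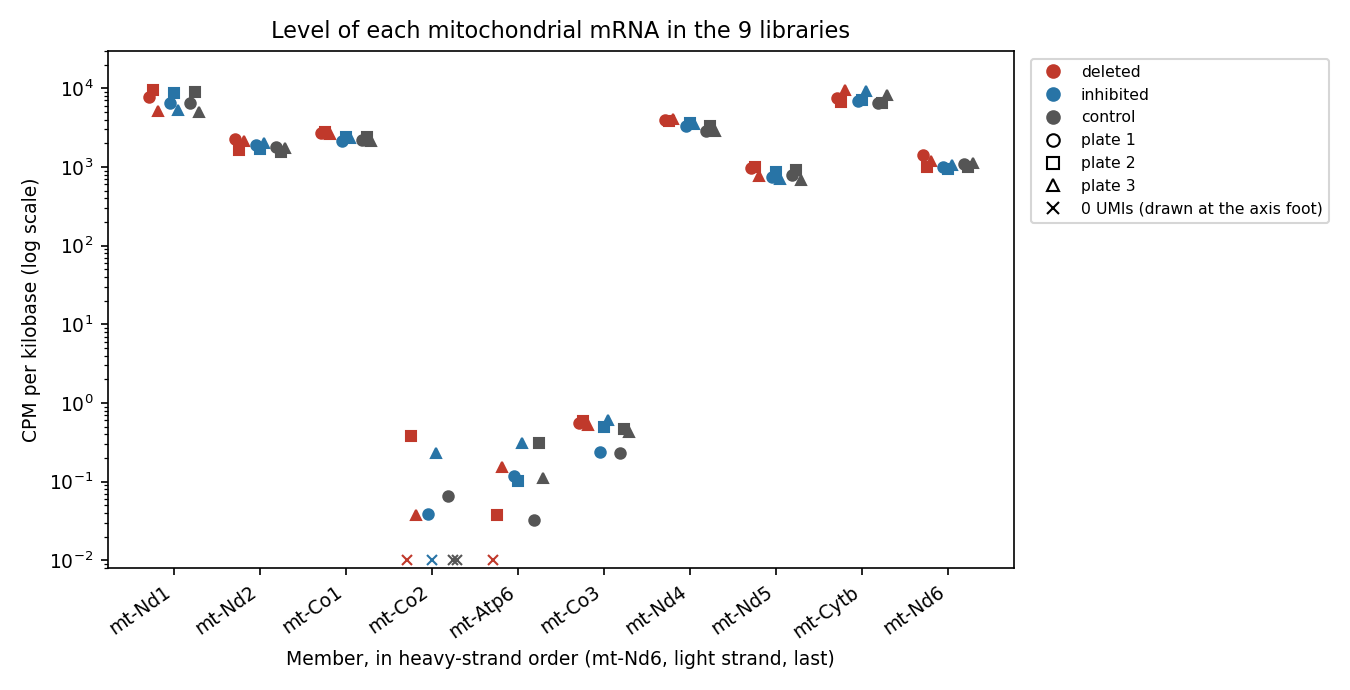
Level of each member in CPM per kilobase (log axis) in the 9 libraries, in heavy-strand order with mt-Nd6 last; colours are cell types and symbols are plates, and a cross at the axis foot is a library with 0 UMIs. The 7 abundant members lie between 689 and 9541 CPM per kilobase, while mt-Co2, mt-Atp6 and mt-Co3 lie under 1.

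The members near 0 were mt-Co2 and mt-Co3, subunits of complex IV, and mt-Atp6, the membrane subunit of ATP synthase that forms part of its proton path. mt-Co3 had 114 UMIs in all, 7 to 18 in a library, in 2.42% of the 4413 wells. mt-Atp6 had 29 UMIs, 0 to 8 in a library, in 0.521% of wells. mt-Co2 had 20 UMIs, 0 to 10 in a library, in 0.136% of wells. By comparison mt-Nd6, the least abundant of the other 7 by UMIs, had 180725. None of the 3 had a UMI in the wells without cells, where 0 of 15 wells allows a share of up to 20%. mt-Co2 had no UMI in 4 libraries, where 0 UMIs allow a share of up to 0.530 to 0.888% of wells, and mt-Atp6 had none in deleted cells on plate 1. All 3 come from 1 stretch of the heavy-strand precursor, between mt-Co1 and mt-Nd3, and mt-Atp8 within the same stretch had 2 UMIs.

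The 3 near-absent members were also those whose sequence is almost wholly repeated outside the mitochondrial genome. Every 50-base window of each transcript was looked up in all other annotated transcripts. The share of windows found elsewhere was 100% for mt-Co2, 99.9% for mt-Co3 and 99.5% for mt-Atp6. It was 62.2% for mt-Nd4, 51.1% for mt-Co1, 8.19% for mt-Nd2 and 7.61% for mt-Nd5, and no window of mt-Nd1, mt-Cytb or mt-Nd6 was found elsewhere. Most of the shared sequence lay in 7 pseudogenes on chromosome 1 between 24611535 and 24616197. There Gm28661 matched mt-Co2 over 681 bases, Gm10925 matched mt-Atp6 over 678 and Gm28437 matched mt-Co3 over 783, each at 100% identity. Gm28439 matched the first 876 of the 1378 bases of mt-Nd4 at 100% identity, and Gm29216 the last 492 of the 1545 bases of mt-Co1 at 98.8%. Of these 7 copies, the count tables have a column only for Gm10222, the copy of mt-Nd4l, with 54 UMIs; the other 6 were not analysed here. The deposited reports give 0 multi-mapped reads in every well, and 4.22 to 4.71% of aligned reads in a library as ambiguous.

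Exceptions ran in both directions. mt-Nd4l and mt-Nd3 share 98.8% and 98.0% of their windows with chromosome 1 copies, yet stood at 994 ± 101 and 73.5 ± 13.8 CPM per kilobase (SD, n = 9). mt-Atp8 shares no window with an annotated transcript and was at 0.0374 CPM per kilobase. The genome sequence between annotated copies was not searched. Whether unplaced reads account for the low counts was not tested, and the 3 low members say nothing here about the abundance of their RNA. The shared stretches also touch the order of the other members: per 1000 windows not found elsewhere, a measure added after seeing the data, mt-Nd4 stood first at 9569 ± 1205 CPM, before mt-Cytb at 7902 ± 1200, mt-Nd1 at 7434 ± 1854 and mt-Co1 at 5097 ± 495 CPM (SD, n = 9). The ranks of mt-Co1, mt-Nd2, mt-Nd6 and mt-Nd5 were the same on both scales.

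**Figure D2:**
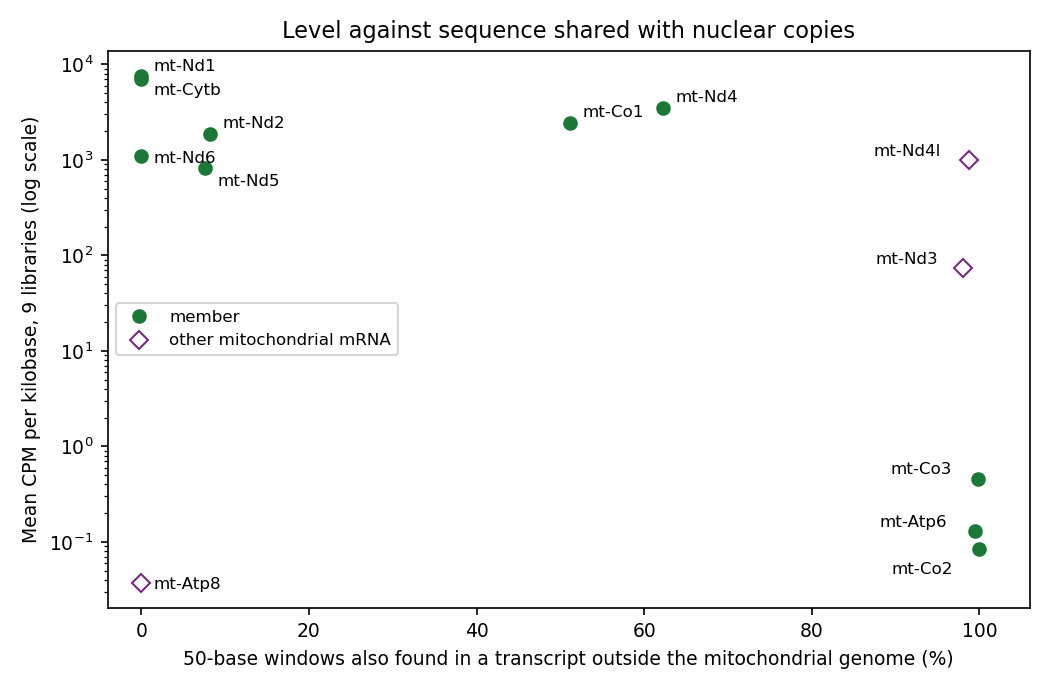
Mean level over 9 libraries in CPM per kilobase (log axis) against the percentage of 50-base windows also found in a transcript outside the mitochondrial genome, for the 13 messenger RNAs; filled circles are members and open diamonds the others. mt-Co2, mt-Atp6 and mt-Co3 sit at 99.5 to 100% and under 1 CPM per kilobase, while mt-Nd4l and mt-Nd3 have a like share at higher levels and mt-Atp8 is low with a share of 0.

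A more diverged copy was counted. Gm13341 on chromosome 2 (chr2:22587291-22587962) is 97.6% identical to mt-Co2 over 672 bases. It stood at 546 ± 75.0 CPM in deleted, 487 ± 15.2 CPM in inhibited and 515 ± 17.9 CPM in control cells (SD, n = 3 plates), and 96.7% of wells had a UMI of it. Its neighbour Gm13340 (chr2:22588103-22589647), 97.6% identical to mt-Co1 over 1545 bases, stood at 71.9 ± 25.2 CPM in deleted, 63.7 ± 11.3 CPM in inhibited and 58.0 ± 16.6 CPM in control cells. Gm13341 thus had 165113 UMIs against the 20 of mt-Co2. Which of the 2 loci gave these molecules was not tested.

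The first comparison asked whether the members differ when Mll1 is deleted. The 7 abundant members were all higher in deleted than in control cells, by 0.14 to 0.39 on the log2 scale, but none passed the threshold over all genes. The largest difference was in mt-Nd4, which had 5493, 5239 and 5598 CPM in deleted cells on plates 1 to 3, against 3947, 4561 and 3958 CPM in control cells. The groups did not overlap, as in 5.44% of all genes tested in this direction. mt-Nd4 differed by 0.39 ± 0.06 (log2, SE), with an edgeR adjusted p of 0.0567. mt-Co1 had 4180, 4271 and 3998 CPM in deleted cells, against 3416, 3699 and 3260 CPM in control cells, again without overlap. The mt-Co1 difference was 0.26 ± 0.05, at an edgeR adjusted p of 0.128. mt-Nd2 had 2383, 1707 and 2219 CPM in deleted cells, against 1867, 1617 and 1793 CPM in control cells, a difference of 0.25 ± 0.06 with overlapping groups (edgeR adjusted p = 0.222).

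The remaining members differed less between deleted and control cells, and their groups overlapped. For mt-Nd5 the deleted cells averaged 1669 ± 216 CPM and the control cells 1462 ± 210 CPM (SD, n = 3), a difference of 0.19 ± 0.06. For mt-Cytb the deleted cells averaged 9074 ± 1693 CPM and the control cells 8100 ± 1110 CPM, a difference of 0.16 ± 0.05. For mt-Nd1 the deleted cells averaged 7160 ± 2072 CPM and the control cells 6515 ± 1966 CPM, a difference of 0.14 ± 0.05. Within plates 1 to 3 the mt-Nd1 log2 ratio was 0.25, 0.08 and 0.08, while its level varied widely between plates. The light-strand mt-Nd6 had 731, 521 and 611 CPM in deleted cells, against 569, 522 and 579 CPM in control cells, so that plate 1 carried most of its difference of 0.15 ± 0.08. edgeR adjusted p for these 4 ran from 0.298 to 0.572. Among the abundant members, mt-Nd4 and mt-Co1 also had the most 50-base windows found outside the mitochondrial genome, at 62.2% and 51.1%. The share was 8.19% for mt-Nd2, 7.61% for mt-Nd5 and 0% for mt-Cytb, mt-Nd1 and mt-Nd6. The part of shared sequence in the differences was not tested.

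In counts, 0 of the 8 members tested were called after deletion, against 0.035% of the 17119 genes tested (6 genes). The filter on low counts left mt-Co2 and mt-Atp6 untested, and mt-Co3, tested on 13, 18 and 16 UMIs in deleted and 8, 14 and 9 UMIs in control libraries, was not called (edgeR adjusted p = 0.853). Of the 7 abundant members, 6 were higher on every plate, where 15.4% of all genes tested were; the exception was mt-Nd6, which had 521 CPM on plate 2 in deleted cells, against 522 CPM in control cells. At an unadjusted p under 0.05, 6 of the 7 were higher, where 5.11% of all genes tested were. In DESeq2, another count model, mt-Nd2, mt-Co1 and mt-Nd4 rose, beside calls for 1.95% of the genes tested. Without the filter on low counts the same 3 members rose, beside calls for 0.613%. Deleted-cell differences were smallest on plate 2 for mt-Nd2, mt-Co1, mt-Nd4, mt-Nd5, mt-Cytb and mt-Nd6.

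The number of calls differed with depth and filtering, whose part in the difference was not tested. Median UMIs per well were 39658.5, 58507 and 23555.5 in deleted cells on plates 1 to 3, against 41125, 35459.5 and 42339 in control cells. When every well was thinned to 5869 UMIs, which left out 442 shallower wells, mt-Nd2, mt-Co1, mt-Nd4, mt-Nd5 and mt-Nd6 rose after deletion, beside calls for 0.561% of the genes tested. In that fit mt-Nd4 differed by 0.43 ± 0.06, mt-Nd5 by 0.34 ± 0.06 and mt-Nd6 by 0.30 ± 0.07, with edgeR adjusted p of 3.22e-06, 0.00192 and 0.0287. Another 4 random draws of the thinning, added after seeing the data, called 5 or 6 members, with mt-Nd1 among them each time. When wells of each plate were split into 3 depth classes, deleted cells exceeded control cells in the median share of member UMIs in 9 of 9 strata, by 0.187 to 0.450 percentage points. Inhibited cells exceeded control cells in 7 of 9 strata, with differences of -0.121 to 0.333 points. Trophectoderm markers were also higher after deletion, without passing the threshold. All 4 that were tested lay above 0, with a median log2 difference of 0.56, beside 8.55e-05 over all genes. Krt7 (0.52 ± 0.23) and Cdx2 (0.80 ± 0.35) had the smallest p of these, each at an edgeR adjusted p of 0.47. After inhibition 3 of the 4 lay above 0, with a median of 0.51 beside -0.000696 over all genes. Krt7 then lay below 0 (-0.40 ± 0.23). Of 9 pluripotency markers, 5 were below 0 and 4 above 0 after deletion (median -0.03). Tdgf1 (-0.30 ± 0.07) and Sox2 (-0.23 ± 0.08) had the smallest p of these 9, at edgeR adjusted p of 0.194 and 0.384. Of the 5 primitive endoderm markers, whose sums were only 2.68 to 8.07 CPM, 4 were below 0 after deletion (median -0.44). All 5 were below 0 after inhibition (median -0.82), and none passed the threshold in either comparison. The part of any of these marker sets in the member differences was not tested. The limit on mitochondrial UMIs removed 13, 24 and 14 deleted wells and 6, 2 and 2 control wells on plates 1 to 3. Without that limit mt-Nd4 (0.47 ± 0.05) and mt-Co1 (0.34 ± 0.05) rose in edgeR, at adjusted p of 0.00727 and 0.0330.

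**Figure D3:**
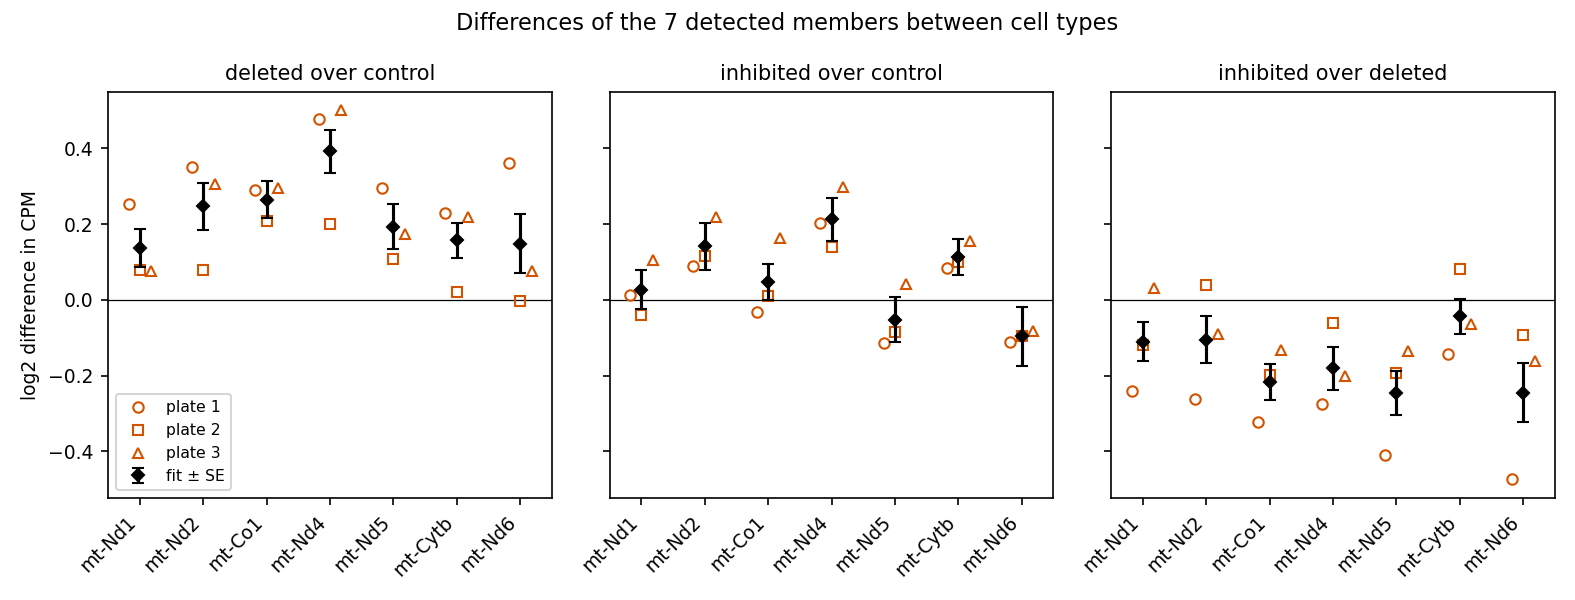
Log2 differences in CPM of the 7 abundant members for the 3 comparisons; diamonds with bars are the edgeR estimate ± SE and open symbols the difference on each plate. After deletion all 7 estimates lie between 0.14 and 0.39, after inhibition they lie between -0.10 and 0.21, and between inhibited and deleted cells all lie below 0.

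The second comparison asked whether the members differ when Mll1 is inhibited. mt-Nd4 had the largest difference again, with 4542, 5026 and 4868 CPM in inhibited cells on plates 1 to 3, against 3947, 4561 and 3958 CPM in control cells. It was higher on every plate although the groups overlapped, and it differed by 0.21 ± 0.06 (edgeR adjusted p = 0.358). mt-Nd2 (0.14 ± 0.06) and mt-Cytb (0.11 ± 0.05) were also higher on every plate, at edgeR adjusted p of 0.538 and 0.509. mt-Co1 (0.05 ± 0.05) and mt-Nd1 (0.03 ± 0.05) went in both directions between plates, and both were below 0 when library totals were used without TMM scaling. mt-Nd6 had 526, 488 and 547 CPM in inhibited cells and 569, 522 and 579 CPM in control cells, lower on every plate, as were 16.3% of genes, with a difference of -0.10 ± 0.08 (edgeR adjusted p = 0.789). mt-Nd5 differed by -0.05 ± 0.06, and both mt-Nd5 and mt-Nd6 were above 0 in some draws with thinned wells.

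After inhibition 0 of the 8 members tested were called, against 0.00584% of genes tested (1 gene), and 3 of the 7 abundant members were higher on every plate, where 16.6% of genes were. At an unadjusted p under 0.05, 3 of the 7 passed, all higher, where 4.77% of genes were. DESeq2 called none of them, beside 1.62% of genes. With no filter on low counts mt-Nd4 rose at an edgeR adjusted p of 0.0349, beside calls for 0.37% of genes. With wells thinned, where 0.828% of genes were called, mt-Nd4 rose by 0.27 ± 0.06 at an edgeR adjusted p of 0.00816, and it was called in each of the 4 further draws. Over the 7 members the median log2 difference was 0.05 after inhibition and 0.19 after deletion, beside medians of -0.000696 and 8.55e-05 over all genes tested; both comparisons use the same control wells.

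The third comparison set the inhibited cells against the deleted cells. All 7 abundant members were lower in inhibited cells, by 0.04 to 0.25 on the log2 scale, and none passed the threshold. mt-Nd5 had 1341, 1580 and 1294 CPM in inhibited cells on plates 1 to 3, against 1782, 1805 and 1420 CPM in deleted cells. It was lower on every plate, with a difference of -0.25 ± 0.06 (edgeR adjusted p = 0.124). mt-Co1 had 3342, 3722 and 3648 CPM in inhibited cells and 4180, 4271 and 3998 CPM in deleted cells. Its groups did not overlap, as in 6.38% of genes in this direction, and the difference was -0.22 ± 0.05 (edgeR adjusted p = 0.100). mt-Nd6 (-0.25 ± 0.08) and mt-Nd4 (-0.18 ± 0.06) were lower on every plate as well, at edgeR adjusted p of 0.205 and 0.199. mt-Cytb was the closest to 0, at -0.04 ± 0.05.

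Between inhibited and deleted cells 0 of 8 members were called, against 0.31% of genes tested (53 genes), and 4 of the 7 abundant members were lower on every plate, where 15.7% of genes were. At an unadjusted p under 0.05 the same number, 4, were lower, where 6.68% of genes were. mt-Co1 and mt-Nd5 fell in DESeq2, beside calls for 4.29% of genes, and mt-Co1, mt-Nd5 and mt-Nd6 fell with thinned wells, beside 1.64%. Without the filter on low counts mt-Co1, mt-Nd4 and mt-Nd5 fell, beside 1.31%. The median share of member UMIs per well was lower in inhibited than in deleted cells in 9 of 9 depth strata.

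The 2 mitochondrial ribosomal RNAs are not messenger RNAs and lie at the start of the heavy-strand precursor. mt-Rnr2 passed the test in every comparison and mt-Rnr1 after deletion only, while no member passed in any. Deleted cells averaged 8912 ± 1372 CPM of mt-Rnr2, against 5510 ± 686 CPM in controls (SD, n = 3), and it rose after deletion by 0.69 ± 0.04 (edgeR adjusted p = 0.000103). mt-Rnr1 rose by 0.46 ± 0.06 after deletion (edgeR adjusted p = 0.0433). mt-Rnr2 averaged 7197 ± 848 CPM in inhibited cells and rose by 0.39 ± 0.04 against control cells (edgeR adjusted p = 0.0279). mt-Rnr1 was at 0.16 ± 0.06 after inhibition, below the 0.21 of mt-Nd4, and did not pass (edgeR adjusted p = 0.448). Between inhibited and deleted cells mt-Rnr2 fell, at -0.30 ± 0.04 (edgeR adjusted p = 0.0207). In the same comparison mt-Rnr1 was at -0.29 ± 0.06 and did not pass (edgeR adjusted p = 0.0852). Whether the members and the ribosomal RNAs differed from each other was not tested.

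Within the member pool, a measure that does not use nuclear UMIs, the shares of mt-Nd1 and mt-Cytb differed more between plates than between cell types. The share of mt-Nd1 in the members' UMIs was 28.9 to 30.6% on plate 2 and 16.7 to 18.9% on plate 3. mt-Cytb ran the other way, at 25.1 to 27.7% on plate 2 and 36.7 to 37.6% on plate 3. Plate 1 lay between them for both. These ranges cover all 3 cell types of a plate, so no cell type stood outside its plate for either transcript by as much as the plates differed.

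For mt-Nd4 the deleted and the inhibited cells stood apart from the control cells. Its share was 17.9, 17.3 and 18.8% in deleted cells on plates 1 to 3 and 17.5, 17.3 and 17.4% in inhibited cells, against 15.9, 16.2 and 15.9% in control cells. Every deleted and every inhibited library was above every control library. The part of the sequence that mt-Nd4 shares with its nuclear copy was not tested. The mean difference was 2.05 percentage points for deletion and 1.46 for inhibition; an exact permutation of the signs of the 3 within-plate differences gives 0.25 (two-sided), the smallest p that 3 plates allow. mt-Nd1 had a lower share on every plate in both comparisons, by 1.16 points after deletion and 1.05 points after inhibition on average. mt-Cytb was also lower on every plate after deletion, at -1.27 points. After inhibition mt-Co1 (-0.37) and mt-Nd5 (-0.52) were lower and mt-Nd2 (0.25) was higher on every plate. For mt-Co1 every inhibited library lay below every control library, but on plate 3 the shares were nearly equal, at 13.04% and 13.06%. Shares of a common pool are not independent, so a higher share of mt-Nd4 goes with lower shares elsewhere. The light-strand mt-Nd6 made up 1.89 ± 0.18% of member UMIs in inhibited, 2.05 ± 0.33% in deleted and 2.15 ± 0.26% in control cells (SD, n = 3), and was lower on every plate after inhibition.

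**Figure D4:**
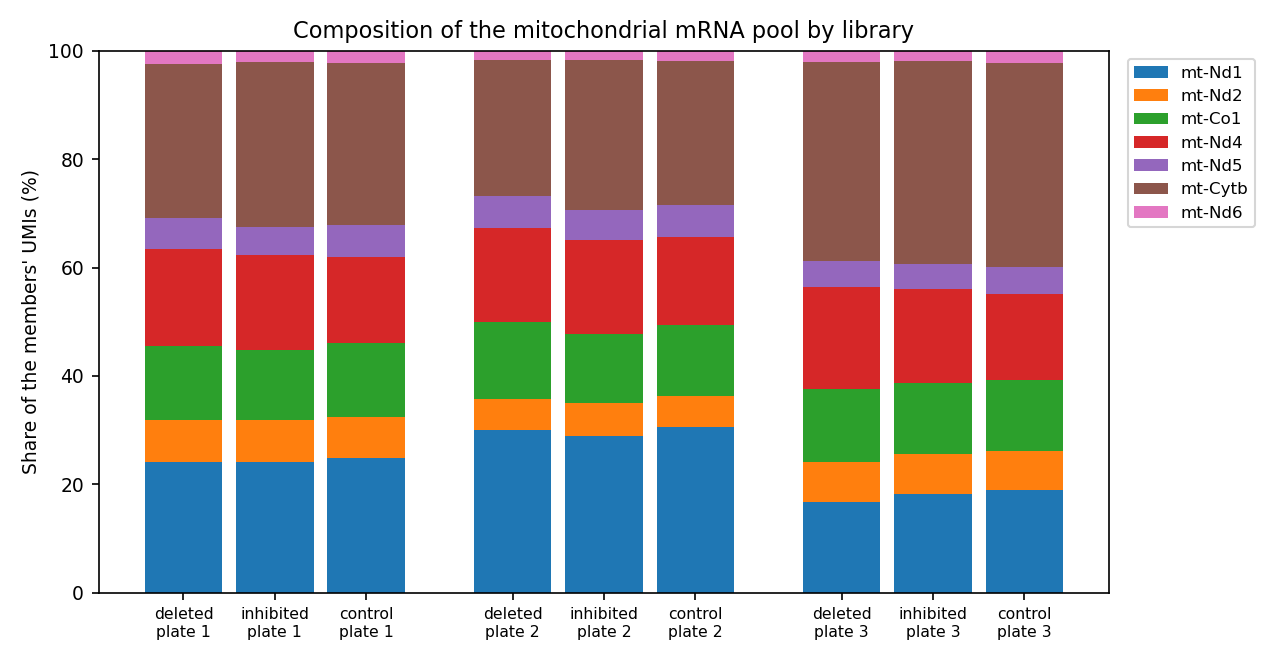
Share of each of the 7 abundant members in the UMIs of all 10 members (stacked bars, %), for the 3 cell types of each plate. mt-Nd1 is widest on plate 2 and mt-Cytb on plate 3 in all cell types, and the mt-Nd4 band is 17.3 to 18.8% in deleted and inhibited libraries and 15.9 to 16.2% in control libraries.

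Between wells, the 7 abundant members varied together. Counts were scaled to the nuclear UMIs of the well, and Pearson's r of log2(scaled count + 1) was computed over the wells of each library; these values are descriptions, since wells of a library share plate, depth and denominator. The median r over the 21 pairs was 0.442 ± 0.052 (SD, n = 9 libraries), with a range over libraries of 0.363 to 0.529. The 3 members near 0 were left out. Counting noise lowers such values. With the Poisson variance of the counts subtracted, the median r was 0.653 ± 0.054. The subtracted values use scaled counts without the log step, and the parts of scale and subtraction in the change were not separated. The highest pair was mt-Nd1 with mt-Cytb, at 0.63 on the log scale and 0.79 after subtraction, although they belong to different complexes and lie at opposite ends of the heavy-strand order. mt-Nd4 with mt-Cytb (0.63 and 0.77) and mt-Nd1 with mt-Nd4 (0.61 and 0.77) came next.

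On average, pairs of the same complex were not higher than other pairs. With mt-Nd6 left out, pairs within a complex had a mean r of 0.493 ± 0.058 and pairs of different complexes 0.522 ± 0.041 (SD, n = 9 libraries), a difference of -0.03 ± 0.02 per library. Only complex I has pairs among the abundant members, and its pairs hold mt-Nd5 more often than the other pairs do. With mt-Nd5 left out too, same-complex pairs had a mean r of 0.52 to 0.61 and other pairs 0.43 to 0.63. The difference of means without mt-Nd5 was not computed. Binned by distance, the order along the precursor made as little difference. Pairs 9 to 11 genes apart had a mean r of 0.529 ± 0.053, pairs 3 to 8 apart 0.504 ± 0.039, and pairs 1 or 2 apart 0.495 ± 0.048. In the last bin, pairs 1 apart ran from 0.42 to 0.52, and the pairs 2 apart were at 0.54 and 0.63. mt-Nd5 co-varied less with the other heavy-strand members, with pairs of 0.39 to 0.44 on the log scale and 0.55 to 0.64 after subtraction. The other heavy-strand pairs were higher on both scales, apart from mt-Nd2 with mt-Co1 at 0.43 and 0.62. It also varied most between wells, with a coefficient of variation, counting variance subtracted, of 0.944 ± 0.121, and mt-Cytb varied least, at 0.677 ± 0.077 (SD, n = 9).

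The light-strand mt-Nd6 had the lowest correlations. Its mean r with the heavy-strand members was 0.365 ± 0.045, while those 6 members had a mean r of 0.510 ± 0.047 among themselves, a gap seen in each of the 9 libraries (-0.20 to -0.11). mt-Nd6 also had the fewest UMIs of the 7. With all members thinned to the mean UMIs of the least abundant one, the means were 0.343 and 0.369, a difference of -0.03 ± 0.03 that changed sign between libraries. With the counting variance subtracted they were 0.551 and 0.687, a difference of -0.14 ± 0.06 that was below 0 in each library. The size of the gap thus moved with the thinning of the members, and the subtracted values are not on the log scale.

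By cell type, the median r was 0.486 ± 0.038 in deleted, 0.403 ± 0.054 in inhibited and 0.437 ± 0.035 in control cells (SD, n = 3 plates). With the counting variance subtracted these became 0.676 ± 0.045, 0.632 ± 0.074 and 0.652 ± 0.052, so the ranges of the cell types overlapped on both scales. Within plates, the median r on the log scale was 0.529, 0.459 and 0.469 in deleted cells on plates 1 to 3, against 0.475, 0.405 and 0.430 in control cells, higher on every plate. With the counting variance subtracted it was 0.728, 0.652 and 0.648 in deleted cells, against 0.697, 0.663 and 0.596 in control cells, lower on plate 2. Under 10% mitochondrial UMIs it was 0.366, 0.369 and 0.337 in deleted cells, against 0.395, 0.322 and 0.392 in control cells, lower on plates 1 and 3. With 3 plates no two-sided exact permutation p under 0.25 can be had, so this difference was not tested. Excluding wells with 10% or more mitochondrial UMIs lowered the median r over all libraries to 0.343 ± 0.040. The members' own UMIs count in that share, so the limit selects wells on the values that are correlated. It left 374, 324 and 508 of 414, 354 and 542 deleted wells on plates 1 to 3. In control cells it left 596, 542 and 333 of 617, 558 and 338 wells.

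**Figure D5:**
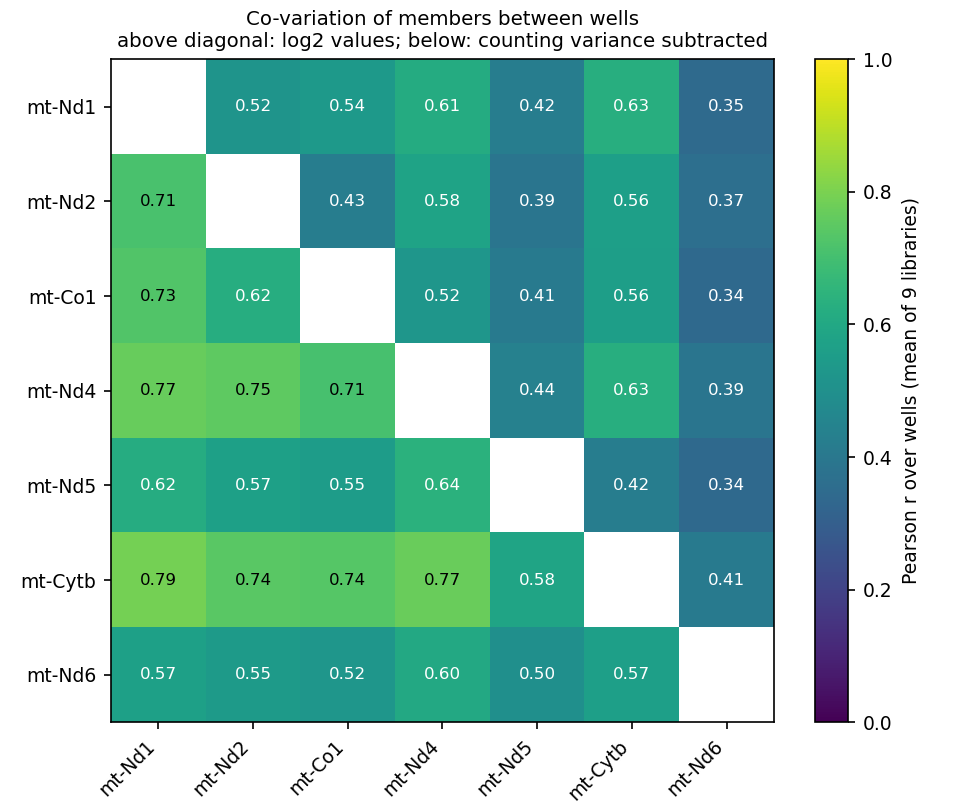
Pearson r over wells for each pair of the 7 abundant members, as the mean of 9 libraries (colour scale 0 to 1). Values above the diagonal are from log2 values. Those below it are from scaled counts without the log step, with counting variance subtracted. mt-Nd1, mt-Nd4 and mt-Cytb form the pairs with the highest values, and the mt-Nd6 and mt-Nd5 rows hold the lowest.

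Outside the mitochondrial genome few transcripts followed the members. Over 5317 genes with a mean of at least 1 UMI per well in every library, the mean Spearman rho with the sum of the 10 members per nuclear UMI had a median of 0.01 (n = 9 libraries, each over its wells). The most alike were Gm13341 (0.51 ± 0.08), Gm13340 (0.32 ± 0.05), Gm42418 (0.31 ± 0.10), Lrp5 (0.20 ± 0.07) and Hsp90aa1 (0.18 ± 0.06; SD, n = 9). Gm13341 and Gm13340 are the chromosome 2 copies described above, whose sequences resemble mt-Co2 and mt-Co1. Lrp5 encodes a Wnt co-receptor and Hsp90aa1 a cytosolic chaperone. The least alike were Pfn1 (-0.24 ± 0.05), Ubb (-0.24 ± 0.03) and the pseudogene Gm1821 (-0.22 ± 0.04); Pfn1 encodes the actin-binding profilin and Ubb a polyubiquitin.

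The nuclear genes that supply the other subunits of the same complexes lay mostly on the other side of 0 after deletion. Of 71 nuclear genes for oxidative phosphorylation subunits, all tested, 63 were below 0 after deletion, as were 50% of all genes tested, with a median log2 difference of -0.08 beside 8.55e-05 over all genes. edgeR called 0 of them, DESeq2 called 1, against 1.95% of all genes, and 15 had an unadjusted p under 0.05, against 10.3% of all genes. Atp5g3 (-0.25 ± 0.05), a ring subunit of ATP synthase, Cox8a (-0.20 ± 0.05) of complex IV and Uqcrb (-0.20 ± 0.06) of complex III had the smallest p, at edgeR adjusted p of 0.179, 0.253 and 0.275. After inhibition 49 of the 71 were above 0 (median 0.05), as were 49.9% of all genes. edgeR called 0, DESeq2 called 3, against 1.62% of all genes, and 17 had an unadjusted p under 0.05, against 9.0% of all genes. Between inhibited and deleted cells 65 of the 71 were above 0 (median 0.16), as were 49.6% of all genes. edgeR called 0, DESeq2 called 11, against 4.29% of all genes, and 35 had an unadjusted p under 0.05, against 13.7% of all genes. Within libraries, the sum of these genes had a mean r of -0.20 with the member sum, from -0.33 to -0.05, while mt-Rnr1 and mt-Rnr2 had 0.65 each; all are scaled to the same nuclear UMIs, to which the nuclear genes contribute.

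edgeR called no gene of the machinery that makes and processes mitochondrial RNA. Of 16 genes for mitochondrial transcription and DNA maintenance, 9 were below 0 after deletion (median -0.04), among them Tfam (-0.21 ± 0.11), which packages and helps transcribe the genome, Ssbp1 (-0.22 ± 0.08), its single-strand binding protein, and the exonuclease gene Mgme1 (-0.37 ± 0.19). Of 20 tested genes for mitochondrial RNA processing and stability, 12 were above 0 (median 0.03); Fastkd3 stood at -0.31 ± 0.15, Trmt10c, a subunit of mitochondrial RNase P, at -0.24 ± 0.11, and Ptcd3 at 0.19 ± 0.09. Of 7 tested regulators of mitochondrial biogenesis 6 were below 0 (median -0.06), with Ppargc1b at -1.43 ± 1.07, Yy1 at 0.11 ± 0.11 and Gabpb1 at -0.15 ± 0.20. Of 15 tested assembly factors 10 were below 0 (median -0.08), with Ndufaf2 at -0.39 ± 0.10, Ndufaf4 at -0.26 ± 0.14 and Cox15 at 0.33 ± 0.18. edgeR adjusted p in these 4 lists was 0.24 or higher after deletion, where 2 of their genes had an unadjusted p under 0.05, against 10.3% of all genes, and DESeq2 called 1, an assembly factor, against 1.95% of all genes. edgeR called none of their genes in the other 2 comparisons. After inhibition DESeq2 called 0 in each list, and the unadjusted p was under 0.05 for 1 transcription gene, 2 RNA processing genes, 1 regulator and 2 assembly factors, against 9.0% of all genes. Between inhibited and deleted cells DESeq2 called 1 transcription gene, 3 RNA processing genes, 0 regulators and 1 assembly factor, against 4.29% of all genes, and 4, 4, 1 and 3 genes of these lists had an unadjusted p under 0.05, against 13.7% of all genes.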

How the data were processed

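Per the submitters' processing notes, STAR 2.5.2b and featureCounts of Subread 1.4.6-p1 were used with mm10; the order of steps and the strand and multi-mapping settings are not given in the sources used here. The deposited tables hold raw UMI counts per well and gene, and the deposited report gives each well's cell type. Row sums and gene numbers equalled the report in 4640 of 4640 wells. The members and lists were chosen with earlier results of these data known. Counts of kept wells were summed by plate and cell type (9 libraries) and fitted with edgeR 4.0.16 (quasi-likelihood test, TMM, filterByExpr, plate as a block, Benjamini-Hochberg over 17119 genes, threshold 0.05); CPM use TMM-scaled totals. The plate block follows from the design, and same-plate libraries deviated together (r of 0.293 to 0.471, 9 pairs). Alternatives included DESeq2 1.42.0 and thinning to 5869 UMIs. Co-variation used 21 pairs of 7 members instead of the planned 45, since 3 members were near 0. Doublets were not called, but 1 alternative left out the deepest 5% of wells. Named genes were the members, the 5 most and 3 least alike genes, and per list the 3 with the smallest p after deletion. Sequences came from GENCODE M21 transcripts. Scripts were tested on simulated data. Counting intervals and limits cover counting error only.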

Additional observations from a re-analysis of the deposited data

Results flagged for a closer look

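Signals were present in transcripts outside the 10 members and above the wells without cells. Gm13341 had a UMI in 96.7% of the 4413 kept wells, against 1 of 15 wells without cells. Gm13340 had one in 74.0% of kept wells and in 0 of 15 wells without cells. mt-Nd4l, which no comparison of the members uses, had one in 82.6% of kept wells and in 1 of 15 wells without cells. mt-Nd3 had one in 51.3% of kept wells and in 0 of 15 without cells. Kept wells had a median of 36355 UMIs and wells without cells a median of 165, so these shares are not at equal depth.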

How the results depend on the processing

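Members called depended on the processing. Against 0 in deleted versus control cells, DESeq2 called 3, library totals without TMM 1, no filter on low counts 3, no limit on mitochondrial UMIs 2, leaving out the deepest 5% of wells 1, and 5 thinning draws 5, 6, 6, 6 and 5. Against 0 in inhibited versus control cells, no filter and every thinning draw called 1. Against 0 in inhibited versus deleted cells, DESeq2 called 2, no filter 3, no mitochondrial limit 2, and the draws 3, 3, 3, 3 and 2. Leaving out a plate called 0 in each. Genes called in deleted versus control cells (6) became 334 with DESeq2, 2 with spike-in scaling, 11 without TMM, 179 without the filter, 10 without the limit, 61, 95, 68, 86 and 73 with thinning, and 1 to 5 without a plate. In inhibited versus control cells (1) they became 277, 2, 0 and 108 with DESeq2, spike-ins, no TMM and no filter, 90, 98, 76, 80 and 93 with thinning, and 0 without any plate. In inhibited versus deleted cells (53) they became 734, 17 and 383 with DESeq2, spike-ins and no filter, 178, 190, 161, 166 and 216 with thinning, 31 without the deepest wells, and 0 to 73 without a plate. Without the plate as replicate block, the 3 comparisons called 0, 0 and 3 genes and 0 members.

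After inhibition, mt-Nd1 reversed with spike-ins (-0.013), without TMM (-0.023) and without plate 3 (-0.013), and mt-Co1 without TMM (-0.0028) and without plate 3 (-0.010). mt-Nd5 reversed in 4 thinning draws (0.038, 0.012, 0.013 and 0.036) and mt-Nd6 in 3 (0.013, 0.014 and 0.0013). Without a plate, mt-Nd1 ran from -0.013 to 0.063 and mt-Co1 from -0.010 to 0.080. The median r moved to 0.363 with members thinned, 0.653 with counting variance subtracted and 0.343 under 10% mitochondrial UMIs, and was 0.432 to 0.453 without a plate. The mt-Nd6 gap moved to -0.101 with Spearman's rho, -0.026 with members thinned and -0.097 under 10%. The same-complex difference moved to 0.0014 and -0.0010 with the first 2 of these. The mt-Nd4 share difference for inhibition moved to 1.78 with thinning. The causes were not tested. Extra thinning draws were chosen after seeing the data. The 3 plates limit every test between cell types, and low UMIs limit mt-Co2, mt-Atp6 and mt-Co3.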
